A study of Mus musculus with 4 samples.

Results

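The genes that write, keep, erase and protect DNA methylation were followed in late two-cell mouse embryos in which the dimerization of MYC with MAX had been inhibited. The group held 10 genes, chosen by name among the 24411 genes listed in each library, and all 10 were listed in every library and passed the filter on low counts. The embryos were of the ICR strain, were produced by in vitro fertilization and cultured in KSOM medium, and were collected at 36 h post-insemination (hpi). Control embryos were cultured with DMSO, the solvent, and treated embryos with 6 µM 10074-G5, a small molecule that binds MYC and blocks its pairing with MAX, from 3 hpi according to the sample labels and from 6 hpi according to the series design. Each of the 2 control and 2 treated libraries was made from 10 pooled embryos, so differences between single embryos could not be seen. Polyadenylated RNA was sequenced.

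After fertilization, most of the methylation that the gametes carried is lost before implantation. DNMT1, guided to newly replicated DNA by UHRF1, copies existing methylation, and DNMT3A and DNMT3B, helped by the catalytically inactive DNMT3L, add new methylation. The TET enzymes oxidize 5-methylcytosine, and TET3 stored in the oocyte acts on the paternal genome of the zygote. DPPA3 (also named STELLA) protects the maternal genome from this oxidation and keeps UHRF1 out of the oocyte nucleus, and the zinc finger protein ZFP57 with its partner TRIM28 keeps the methylation of imprinted regions. Several of these mRNAs are stored in the oocyte, so their level at the two-cell stage can hold both what is left from the oocyte and what the embryo transcribes.

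Total counts per library ranged from 18206579 to 20718680. Control replicate 1 stood apart from the other 3 libraries, with a Pearson's r of log2 CPM (counts scaled to the library total and corrected with TMM factors) of 0.825 to 0.887 with them against 0.912 to 0.931 among the others, across genes, which are not independent replicates. It lay farther from the mean of the treated libraries than control replicate 2 for 77.2% of 13549 tested genes and for 8 of the 10 members, so the difference of each member is given with and without it. The summed FPKM (fragments scaled to transcript length and library total) of 8 two-cell markers, among them Zscan4c and Zfp352, was 1755 in control replicate 1 and between 5002 and 6809 in the other libraries, and none of the 8 was at 0. For 10 oocyte-stored transcripts, among them Gdf9 and Bmp15, the sum was 1518 in control replicate 1, 5171 in control replicate 2, 10558 in treated replicate 1 and 7555 in treated replicate 2, with none at 0. Btg4 and Oosp1 made up most of each sum. Zp3, of the same list, went the other way, with 205 and 75.1 FPKM in control and 59.0 and 65.1 FPKM in treated embryos. Of 9 cumulus and granulosa cell markers 6 were at 0 in each library, Amh, Foxl2, Inha and Ptx3 in all of them, and their sum was between 0.61 and 6.68 FPKM. The sum of 5 sperm markers was between 2.7 and 16.1 FPKM, with 2 to 4 of them, Prm1 and Tnp2 in all libraries, at 0, and that of 6 markers of blastocyst lineages was between 2.23 and 9.10 FPKM, with 1 to 3 at 0.

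The levels of the members spanned more than 4 orders of magnitude on the FPKM scale, which is corrected for transcript length. Dppa3, on chromosome 6 (GRCm38, 122626410 to 122630272), was among the 3 highest of all listed genes in every library, with 23548 and 15004 FPKM in control and 11263 and 12132 FPKM in treated embryos. It took 1.27% and 0.807% of all counts in control and 0.613% and 0.654% in treated embryos. Zfp57, on chromosome 17 (37001163 to 37010635), was next, with 132 and 220 FPKM in control and 368 and 288 FPKM in treated embryos, and stood between rank 331 and rank 1030 of all genes. Dnmt3l, on chromosome 10 (78041947 to 78063622), followed with 49.3 and 51.6 FPKM in control and 40.4 and 44.2 FPKM in treated embryos. The ranges of these 3 genes over the 4 libraries did not overlap.

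In the middle of the order were the maintenance genes, the oocyte TET gene and the main de novo enzyme, and here the order was not fixed. Uhrf1, on chromosome 17 (56303321 to 56323486), had 5.72 and 19.3 FPKM in control and 23.1 and 20.8 FPKM in treated embryos, a 4.05-fold range that was the widest of the 10. Tet3, on chromosome 6 (83362373 to 83459084), had 5.98 and 10.6 FPKM in control and 14.2 and 14.3 FPKM in treated embryos. Uhrf1 lay above Tet3 in 3 of the 4 libraries, the exception being control replicate 1. Dnmt3a, on chromosome 12 (3806007 to 3914443), had 7.77 and 7.52 FPKM in control and 5.74 and 6.88 FPKM in treated embryos, and lay above Dnmt1 in 4 of 4 libraries although their ranges overlapped. Dnmt1, on chromosome 9 (20907209 to 20959888), had 3.59 and 4.07 FPKM in control and 4.10 and 6.84 FPKM in treated embryos. Tet1, on chromosome 10 (62804570 to 62908996), had 5.65 and 4.25 FPKM in control and 3.21 and 2.47 FPKM in treated embryos, and could not be ordered against Dnmt1, which it exceeded in both control libraries and fell below in both treated ones.

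At the bottom were Dnmt3b, on chromosome 2 (153649450 to 153687730), with 1.01 and 1.31 FPKM in control and 1.51 and 1.46 FPKM in treated embryos, and Tet2, on chromosome 3 (133463679 to 133545139), with 0.37 and 0.48 FPKM in control and 0.22 and 0.33 FPKM in treated embryos. These rest on few reads. For Tet2 the counts were 63 and 78 in control and 40 and 59 in treated embryos, and the exact 95% Poisson interval of the lowest ran from 28.6 to 54.5, which covers counting error only, as PCR duplicates cannot be recognised without molecular identifiers.

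**Figure D1:**
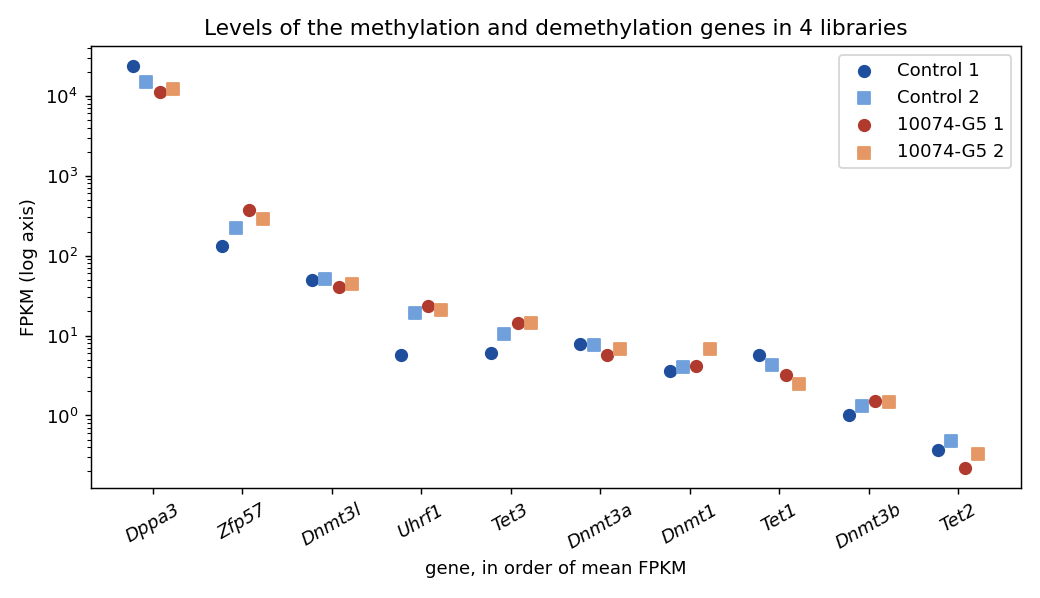
FPKM (log axis) of the 10 genes in each library, in order of their mean, with blue points for the 2 control libraries and red points for the 2 treated libraries. Dppa3 lies above 11263 FPKM in every library, Zfp57 between 132 and 368 FPKM, and Tet2 between 0.22 and 0.48 FPKM, while the points of Uhrf1, Tet3, Dnmt3a, Dnmt1 and Tet1 intermix.

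Because methylation genes are known for alternative start sites used in the germ line and in somatic cells, the windows before the annotated starts and the transcript length assigned to each gene were examined next. RefSeq promoter windows (GRCm38.p6) were matched for 9 members, with 18 windows in all, and Dppa3 was the member without a match. In the 250 bases before each start, the E-box CACGTG, to which MYC–MAX binds, was searched together with the variant CACGCG on both strands. The letters CACGTG were found in 2 of the 18 windows, those of Dnmt3a and Dnmt3l, against 6.02% of 32851 windows of all genes, and CACGCG in 1, that of Uhrf1, against 7.62%. Windows of one gene can overlap each other, and a match of letters does not show binding. The windows are shown with the matched letters in capitals, 5′ to 3′ on the strand of the gene. Those of Dnmt3l are the second of its starts, which holds the E-box, and its last start, from which the short transcripts described next begin. That of Uhrf1 holds the variant, and that of Dnmt1 lies before its most upstream start. For Dnmt3a, 30 bases around the E-box, whose first base lies 80 bases before the internal start at 3891744, are given because that window overlaps an exon.
Dnmt3l second start, chr10:78049592-78049841, plus strand: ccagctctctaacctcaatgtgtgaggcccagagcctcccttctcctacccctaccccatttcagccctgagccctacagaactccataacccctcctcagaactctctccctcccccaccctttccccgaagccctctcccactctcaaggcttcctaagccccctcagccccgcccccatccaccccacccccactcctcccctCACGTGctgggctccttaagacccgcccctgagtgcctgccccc
Dnmt3l last start, chr10:78055085-78055334, plus strand: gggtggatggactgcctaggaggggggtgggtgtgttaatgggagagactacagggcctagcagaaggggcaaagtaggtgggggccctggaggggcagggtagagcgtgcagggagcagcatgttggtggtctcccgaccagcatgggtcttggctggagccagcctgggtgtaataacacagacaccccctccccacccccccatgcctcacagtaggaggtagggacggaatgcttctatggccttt
Uhrf1 start at 56304313, chr17:56304063-56304312, plus strand: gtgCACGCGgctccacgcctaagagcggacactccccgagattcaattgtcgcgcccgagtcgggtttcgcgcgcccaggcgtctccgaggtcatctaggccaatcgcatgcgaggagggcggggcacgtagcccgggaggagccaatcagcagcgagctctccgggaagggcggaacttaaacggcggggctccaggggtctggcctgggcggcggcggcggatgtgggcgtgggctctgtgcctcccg
Dnmt1 most upstream start, chr9:20959889-20960138, minus strand: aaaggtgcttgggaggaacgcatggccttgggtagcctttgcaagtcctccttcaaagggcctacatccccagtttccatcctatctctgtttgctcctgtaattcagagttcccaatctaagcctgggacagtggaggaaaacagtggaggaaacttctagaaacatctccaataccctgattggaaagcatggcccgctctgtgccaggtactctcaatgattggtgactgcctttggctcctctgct
Dnmt3a internal start: tccagtggggccCACGTGacctggagttct

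The CpG content of the windows differed widely between members. Tet2 had 51 CpG dinucleotides in its 250 bases and the windows of the first Dnmt3a starts 38 and 40, against a median of 6 over the windows of all genes. The most upstream Dnmt1 window had 2, the window of the last Dnmt3l start 3, and the 3 Zfp57 windows between 3 and 7. The Uhrf1 window shown had 30.

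The length that RSEM assigns to a gene is the mean over its transcripts weighted by their estimated abundance, so it moves when reads are assigned to other transcripts of the gene. Dnmt3l had a weighted length of 1189 and 1306 bases in control and of 1406 and 1462 bases in treated embryos. All 4 values lie below the 1657 to 1822 bases of the transcripts that encode the full protein of 421 residues. The 3 transcripts of the last start, at 78055335, have 1113 to 1452 bases and a coding sequence for 126 residues. With the GENCODE lengths of these transcripts, at least 85.9% and 64.6% of the Dnmt3l molecules in control and at least 46.2% and 35.9% in treated embryos had to be assigned to the last start. The upper limits were 100% and 100% in control and 100% and 97.4% in treated embryos, so the lengths do not show whether the use of starts differed. These limits are approximate, since the lengths in the files differed from GENCODE by 2 to 15 bases for the 3 members with 1 transcript. They describe how reads were assigned to annotated transcripts. The coverage along the gene was not examined, so use of the last start was not tested. The groups did not overlap, with the treated libraries longer by 14.9%. Of 3975 tested genes with more than 1 transcript, 12.8% had longer and 9.69% had shorter lengths in both treated libraries, and 3.09% had a larger relative difference than Dnmt3l in either direction. Control replicate 1 again had the most extreme value.

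Dnmt1 had a weighted length of 5251 and 5268 bases in control and of 5301 and 5303 bases in treated embryos. The most upstream start, at 20959888 on the minus strand, gives a transcript of 5248 bases that encodes 1501 residues, and the start at 20952979 gives one of 5367 bases that encodes 1620 residues. The shorter protein is that of the oocyte form DNMT1o. The length in control replicate 1 was close to that of the upstream transcript, and all 4 lay between the lengths of these transcripts. A further start, at 20952605, gives a transcript of 5543 bases that encodes 1502 residues. With these GENCODE lengths, only the upstream transcript was shorter than the weighted lengths. A part of the Dnmt1 molecules in every library thus had to be assigned to it. The shares of the forms were not estimated, since the lengths in the files can differ from GENCODE. The treated libraries were longer by 0.804%, with groups that did not overlap, and 36.7% of the genes with more than 1 transcript had a larger relative difference. Dnmt3a, Dnmt3b, Uhrf1, Tet1 and Zfp57 had overlapping groups, with differences of means between -0.052% and 1.90%. Tet2, Tet3 and Dppa3 have 1 listed transcript each, so their length cannot move.

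**Figure D2:**
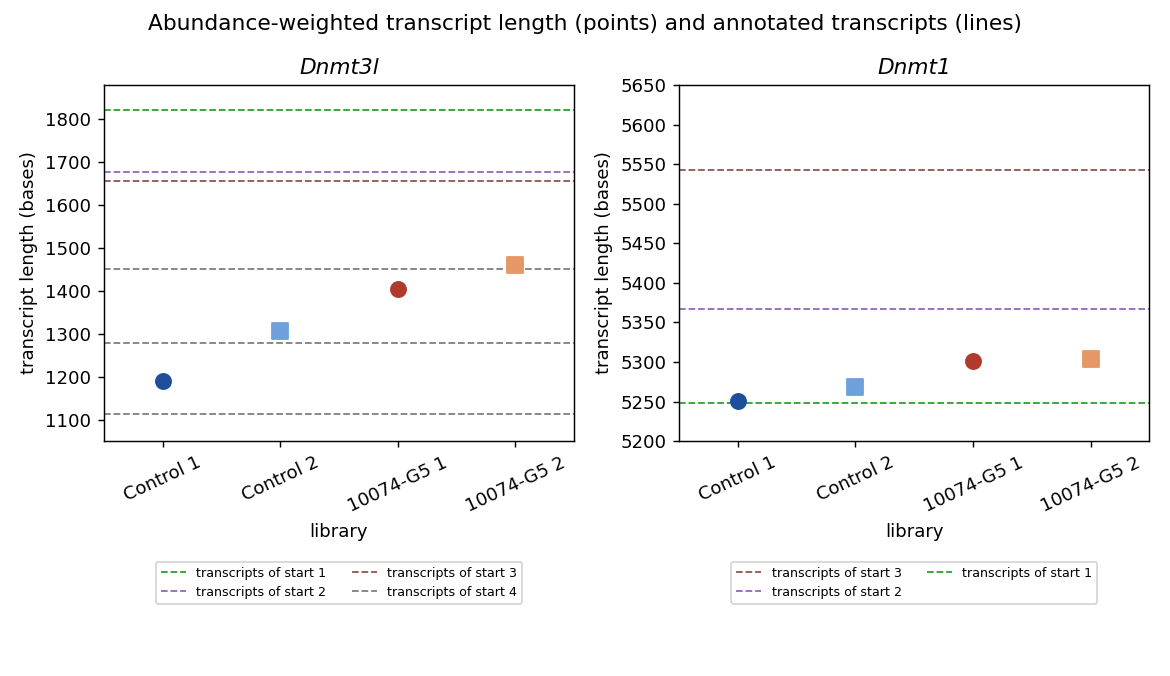
Weighted transcript length in bases (points) of Dnmt3l and Dnmt1 in the 4 libraries, with dashed lines at the lengths of their annotated transcripts, coloured by start site and numbered from the most upstream start. The Dnmt3l points lie between 1189 and 1462 bases, below the transcripts of starts 1 to 3, and the Dnmt1 points lie between 5251 and 5303 bases, between the transcripts of starts 1 and 2.

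To examine whether inhibition changed these genes, treated and control embryos were compared with edgeR's quasi-likelihood test over 13549 genes, at an adjusted p under 0.05 and a |log2FC| over 1. The test called 0 of the 10 members and 0 genes in all (0%). None of the members had an unadjusted p under 0.05 either, while 4.72% of all tested genes were higher and 10.1% lower at that level. DESeq2, run on all genes with at least 1 count, called 87 genes higher (0.478%) and 437 lower (2.4%), and none of the members, with no adjusted p given for Dnmt3b and Tet2. Its unadjusted p was 0.040 for Tet1 and 0.043 for Dppa3 (adjusted p = 0.162 and 0.167), and was under 0.05 for 2815 of 18208 genes. Without control replicate 1, edgeR called 2 genes in all (0.0136%) and again 0 members. In fits with 1 control library, that library is assumed to vary like the treated ones. Of the members, 5 had a positive and 5 a negative log2FC, with a median of 0.06 against 0.04 for all tested genes. In 4 members, Dnmt3b, Uhrf1, Tet3 and Zfp57, both treated libraries were above both control libraries, and in 5, Dnmt3a, Dnmt3l, Tet1, Tet2 and Dppa3, both were below, against 28.9% and 28.3% of all tested genes. With library totals as the scale Dnmt1 joined the first set and Dnmt3l left the second. The size of the log2FC, without its sign, stood between the 8.74th and the 62.4th percentile of all tested genes.

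Among the maintenance genes, Uhrf1, the reader of hemimethylated DNA, had 20.5 and 58.8 CPM in control and 70.1 and 61.8 CPM in treated embryos. Control replicate 1 was low, and control replicate 2 lay close to the lower treated library. The log2FC of Uhrf1 was 0.73 (standard error 0.53, 95% interval -0.51 to 1.98, adjusted p = 0.505), and it was 0.18 without control replicate 1 (adjusted p = 0.825) and 1.68 without control replicate 2 (adjusted p = 0.00322). A processed pseudogene, Gm5648, matches 44.3% of the longest Uhrf1 transcript at 98.3% identity, so some Uhrf1 reads may have been lost as not unique. Dnmt1, the maintenance enzyme itself, had 20.5 and 19.6 CPM in control and 19.8 and 32.4 CPM in treated embryos. Only treated replicate 2 was high and the groups overlapped. Its log2FC was 0.38 (standard error 0.45, 95% interval -0.68 to 1.44, adjusted p = 0.692), and it was 0.43 without control replicate 1 and -0.017 without treated replicate 2.

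Among the de novo genes, Dnmt3a had 77.0 and 62.6 CPM in control and 48.3 and 56.1 CPM in treated embryos, so the treated libraries were lower, and its log2FC was -0.42 (standard error 0.37, 95% interval -1.28 to 0.44, adjusted p = 0.585). Dnmt3b, at 4.55 and 4.77 CPM in control and 5.61 and 5.49 CPM in treated embryos, was separated by less than the counting error, with exact 95% Poisson intervals of 72.4 to 110.6 around the 90 counts of control replicate 2 and of 94.9 to 138 around the 115 counts of treated replicate 2. Its log2FC was 0.25 (standard error 0.62, 95% interval -1.20 to 1.70, adjusted p = 0.862). Dnmt3l had 51.4 and 51.0 CPM in control and 44.0 and 49.3 CPM in treated embryos, and its log2FC was -0.13 (standard error 0.37, 95% interval -1.0 to 0.73, adjusted p = 0.877). The count of Dnmt3l thus differed little between the groups, beside the longer weighted length in treated embryos. With the effective length as an offset its log2FC was -0.40, and without TMM factors it was 0.0037. Without control replicate 1, the log2FC was -0.25 for Dnmt3a, 0.23 for Dnmt3b and -0.11 for Dnmt3l. The library kit does not mark the strand, so reads of overlapping genes on the other strand cannot be told apart. Aire, which overlaps Dnmt3l, had 17 and 17 counts in control and 63 and 43 counts in treated embryos against 859 to 1034 for Dnmt3l. Dnmt3aos, antisense to Dnmt3a, had at most 4. These counts come from the same reads without strand, so the part of the other strand was not tested.

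The TET genes differed from each other in sign. Tet1, the TET gene of pluripotent cells, had 89.3 and 56.5 CPM in control and 42.5 and 32.2 CPM in treated embryos, so both treated libraries were lower, and the control libraries differed by more than the gap between the groups. The log2FC of Tet1 was -0.97 (standard error 0.42, 95% interval -1.94 to 0.0092, adjusted p = 0.338), the smallest adjusted p among the members, and it was -0.58 without control replicate 1 (adjusted p = 0.43) and -1.26 without control replicate 2 (adjusted p = 0.00877). Tet3, the TET gene of the oocyte, had 72.9 and 108.6 CPM in control and 145 and 143 CPM in treated embryos. Both treated libraries were higher and close to each other. Its log2FC was 0.67 (standard error 0.37, 95% interval -0.19 to 1.53, adjusted p = 0.403), and it was 0.42 without control replicate 1 (adjusted p = 0.452) and 0.98 without control replicate 2 (adjusted p = 0.0133), under the fold change required for a call. Tet2 had 3.77 and 4.13 CPM in control and 1.86 and 2.81 CPM in treated embryos, with a log2FC of -0.76 (standard error 0.78, 95% interval -2.58 to 1.06, adjusted p = 0.642), and of -0.80 without control replicate 1.

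A ratio of 2 genes within a library does not depend on how the libraries are scaled. The FPKM of Tet3 was 1.06 and 2.49 times that of Tet1 in control and 4.42 and 5.78 times in treated embryos. The ratio was higher in both treated libraries, and control replicate 2 lay between control replicate 1 and the treated libraries. As Tet3 was higher and Tet1 lower in both treated libraries, this separation followed from their levels and is no further result. Among other ratios computed, Dnmt3l to Dnmt3a, Uhrf1 to Dnmt1 and Zfp57 to Tet3 had overlapping groups. That of Dnmt3a to Dnmt3b was lower in both treated libraries. Of the summed TET FPKM, Tet3 made up 59.5 ± 13.7% in control and 82.1 ± 2.17% in treated embryos, and Tet1 37.4 ± 13.7% and 16.3 ± 2.65% (SD, n = 2). With 2 libraries against 2, an exact two-sided permutation test cannot give a p under 0.333. Among the DNA methyltransferase genes the shares differed by a few percentage points, with Dnmt3l and Dnmt3a lower and Dnmt1 and Dnmt3b higher in both treated libraries. Dnmt3l made up 79.97 ± 0.0323% of their summed FPKM in control and 76.2 ± 2.59% in treated embryos, Dnmt3a 12.1 ± 0.660% and 11.3 ± 0.361%, Dnmt1 6.07 ± 0.348% and 9.72 ± 2.55%, and Dnmt3b 1.83 ± 0.279% and 2.69 ± 0.322% (SD, n = 2). FPKM is scaled to length, and the weighted length of Dnmt3l was 14.9% longer in treated embryos, so these shares depend on the transcripts assigned.

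**Figure D3:**
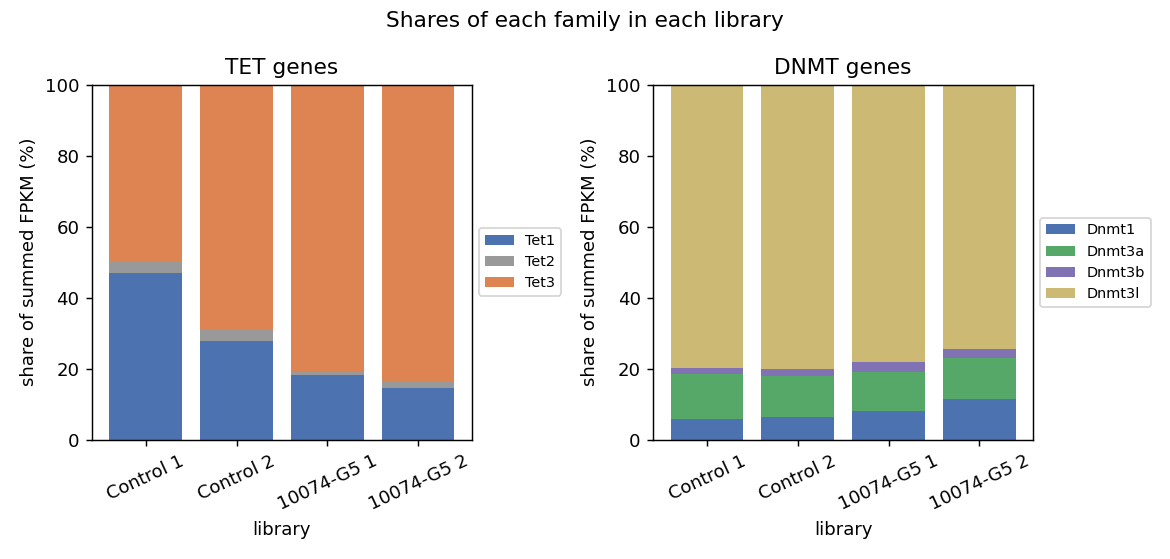
Share (%) of each gene in the summed FPKM of the TET genes (left) and of the DNA methyltransferase genes (right) in each library. The share of Tet3 is 49.8% and 69.1% in the control libraries and 80.5% and 83.6% in the treated ones, while that of Dnmt3l lies between 74.4% and 79.99% in all 4.

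The genes that protect methylation had differences of opposite sign. Zfp57 had 240 and 336 CPM in control and 562 and 434 CPM in treated embryos, so both treated libraries were higher. The log2FC of Zfp57 was 0.79 (standard error 0.38, 95% interval -0.10 to 1.68, adjusted p = 0.361). It was 0.58 without control replicate 1 (adjusted p = 0.318), where it was the only member with an unadjusted p under 0.05, against 6.44% of 14721 genes that were higher at that level, and 1.05 without control replicate 2 (adjusted p = 0.011). Dppa3 had 14533 and 7780 CPM in control and 5889 and 6181 CPM in treated embryos. Both treated libraries were lower, and control replicate 2 was nearer to them than to control replicate 1. The log2FC of Dppa3 was -0.89 (standard error 0.46, 95% interval -1.96 to 0.19, adjusted p = 0.384), and it was -0.35 without control replicate 1 (adjusted p = 0.456) and -1.27 without control replicate 2 (adjusted p = 0.00134). A transcribed pseudogene, Dppa3-ps, matches 54.1% of its transcript at 98.2% identity, so some Dppa3 reads may likewise have been lost. The FPKM of Dppa3 was 178 and 68.4 times that of Zfp57 in control and 30.6 and 42.1 times in treated embryos. That this ratio was lower in both treated libraries followed from the opposite directions of Dppa3 and Zfp57.

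Uhrf1, Tet3 and Zfp57 were thus lowest, and Dppa3 and Tet1 highest, in control replicate 1, the library in which the sums of oocyte-stored transcripts and of two-cell markers were also lowest. Of the oocyte-stored transcripts 7 of 10 were higher and 1, Zp3, was lower in both treated libraries, against 28.9% and 28.3% of all tested genes. Their median log2FC was 0.89, against 0.04 for all tested genes. Of the two-cell markers 6 of 8 were higher and none was lower, with a median of 0.98. Both comparisons include control replicate 1. The part of the stage or RNA content of control replicate 1 in the differences of the members was not tested. In these pools, fewer embryos expressing a gene and less RNA per embryo cannot be told apart.

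**Figure D4:**
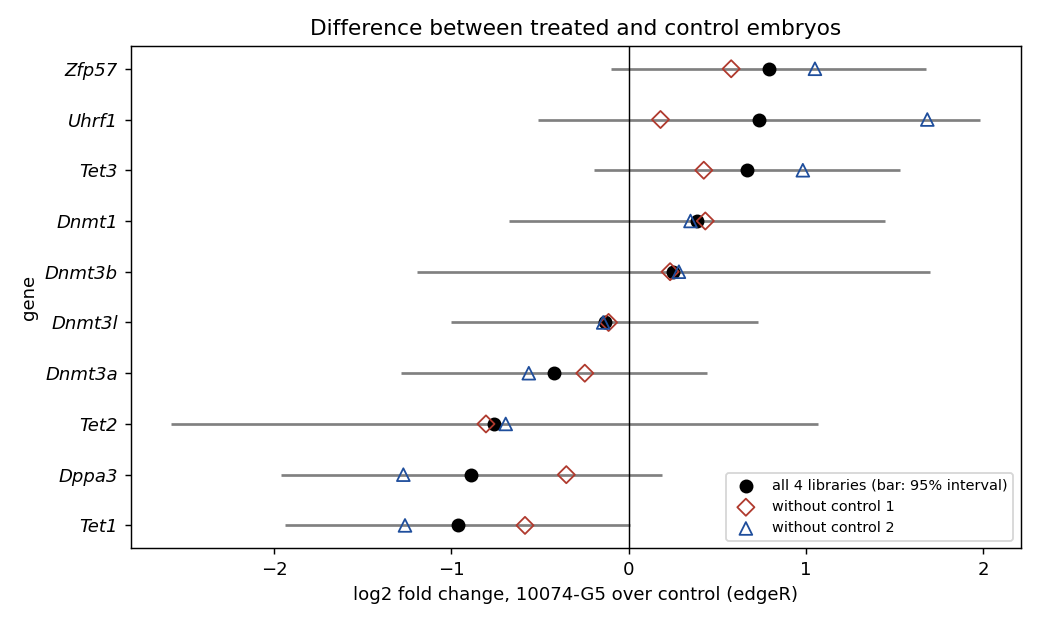
The log2FC of the 10 genes, treated over control, from edgeR over all 4 libraries (black points with 95% intervals), without control replicate 1 (red diamonds) and without control replicate 2 (blue triangles). Every interval includes 0. For every gene except Dnmt1 and Tet2, the value without control replicate 1 lies nearer to 0. For the same genes, that without control replicate 2 lies farther from 0, with small shifts for Dnmt3b and Dnmt3l.

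The pattern of each member over the 4 libraries was shared by other genes. For each member the gene with the smallest root mean square difference of centred log2 CPM over the 4 libraries was found among tested genes with at least 10 CPM on average. These were Aldoa for Dnmt1 (difference 0.0537), Gm4961 for Uhrf1 (0.0305), Osgep for Dnmt3a (0.00699), 2310022A10Rik for Dnmt3b (0.0165), Ddx6 for Dnmt3l (0.00216), Nubp2 for Tet1 (0.0326), 2010320M18Rik for Tet2 (0.0232), Hdac2 for Tet3 (0.0155), Rnf185 for Zfp57 (0.0234) and Nxf1 for Dppa3 (0.0247). Between 13 genes for Dnmt1 and 185 for Dnmt3a lay within 0.1 of a member.

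The other genes of the pathway were taken from 6 lists of 56 genes, of which 54 were listed and 48 tested. edgeR called none of them, and 8 were lower and 0 higher in treated embryos at an unadjusted p under 0.05, against 10.1% lower and 4.72% higher of all tested genes, with adjusted p-values of 0.333 or more. Their median log2FC was -0.31, with 29 negative and 19 positive. Without control replicate 1 the median was -0.14 over 51 tested genes, with 30 negative and 21 positive. The list of imprint protection and heterochromatin held Trim28, whose protein is the partner of ZFP57, with other genes of imprint protection and heterochromatin. Of 9 tested, 8 had a negative log2FC, 4 (Cbx5, Ehmt1, Cbx3 and Trim28) were lower at an unadjusted p under 0.05 (10.1% of all tested genes), and the groups did not overlap for 7 lower genes and 1 higher gene (28.3% and 28.9% of all tested genes). The median of this list was -1.12, and it was -0.49 without control replicate 1, where 8 of 9 were still negative and 2 (Cbx5 and Zfp445) had an unadjusted p under 0.05, against 7.36% of all genes that were lower at that level. Cbx5, which encodes the heterochromatin protein HP1α, had 201 and 120 CPM in control and 60.9 and 70.7 CPM in treated embryos, a log2FC of -1.29 (adjusted p = 0.333) that was -0.86 without control replicate 1. Ehmt1, a histone H3 lysine 9 methyltransferase, had 72.8 and 36.4 CPM in control and 22.2 and 25.9 CPM in treated embryos, a log2FC of -1.18 (adjusted p = 0.333), and -0.58 without control replicate 1. Trim28, the partner of ZFP57, had 3168 and 1441 counts in control and 1290 and 1198 counts in treated embryos, a log2FC of -1.18 that was -0.37 without control replicate 1. Zfp57 and Trim28 therefore differed in direction, each with groups that did not overlap and neither with an adjusted p under 0.05.

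In the list of base excision and active demethylation, 12 of 16 tested genes had a negative log2FC (median -0.48), against 48.5% of all tested genes, and 2, Apobec3 and Parp1, were lower at an unadjusted p under 0.05, a share near the 10.1% of all tested genes. Parp1, a sensor of DNA breaks, had 62.5 and 27.2 CPM in control and 16.4 and 19.8 CPM in treated embryos, a log2FC of -1.31 (adjusted p = 0.333), and -0.57 without control replicate 1. Apobec3, a cytidine deaminase, had 220 and 105 counts in control but 1 and 36 in treated embryos, and its fold change is uncertain at these counts. Without control replicate 1 the median of the list was -0.11 over 18 tested genes, of which 10 were negative, and 0 were lower and 1 was higher at an unadjusted p under 0.05. Tdg, the glycosylase that removes oxidized methylcytosine, was listed at 0 in all 4 libraries. The pseudogene Tdg-ps matches 84.8% of the Tdg transcript at 98.7% identity and only uniquely mapped reads were kept, so the level of Tdg is uncertain. Ahcy, which clears S-adenosylhomocysteine, is in the same position, with 2 and 24 counts in control and 0 and 0 in treated embryos and a protein-coding copy, Gm4737, that matches 81.9% of it at 99.7% identity.

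Of the genes that supply S-adenosylmethionine, the methyl donor, Mat2a and Mat2b encode the catalytic and the regulatory subunit of the same enzyme. Mat2a had 847 and 268 CPM in control and 151 and 164 CPM in treated embryos, which gave a log2FC of -1.82 (adjusted p = 0.333) that was -0.75 without control replicate 1 (adjusted p = 0.211). Mat2b had 657 and 1208 CPM in control and 1333 and 1252 CPM in treated embryos, a log2FC of 0.47 (adjusted p = 0.594), and 0.11 without control replicate 1. Both treated libraries lay below the control libraries for Mat2a and above them for Mat2b. This list as a whole had a median of 0.20 over 6 tested genes, and of 0.09 over 7 without control replicate 1.

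In the remaining lists no gene was called either. In that of de novo methylation and its guidance, with a median of -0.19 over 4 tested genes that was -0.35 without control replicate 1, Kdm1a, a histone demethylase, had 77.7 and 38.3 CPM in control and 24.0 and 22.4 CPM in treated embryos (log2FC -1.32, adjusted p = 0.333, and -0.71 without control replicate 1). Setd2, the enzyme that trimethylates H3 lysine 36, a mark read by DNMT3A and DNMT3B, had 848 and 827 CPM in control and 469 and 545 CPM in treated embryos (log2FC -0.72, adjusted p = 0.368), and was -0.69 without control replicate 1. The maintenance partners had a median of 0.12 over 7 tested genes, which turned to -0.0060 without control replicate 1. Of these, Cdca7l had 23 and 373 counts in control and 525 and 456 in treated embryos (adjusted p = 0.581), and Usp7, which deubiquitinates DNMT1 and UHRF1, had 405 and 350 CPM in control and 307 and 289 CPM in treated embryos (log2FC -0.34, adjusted p = 0.639, and -0.22 without control replicate 1). The methyl-CpG-binding proteins had a median of 0.46 over 6 tested genes, and of 0.04 without control replicate 1. Mbd1 had 7 and 35 counts in control and 92 and 96 in treated embryos (log2FC 1.95, adjusted p = 0.377, and 1.27 without control replicate 1), and Zbtb33 had 98 and 228 counts in control and 403 and 253 in treated embryos (adjusted p = 0.51).

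**Figure D5:**
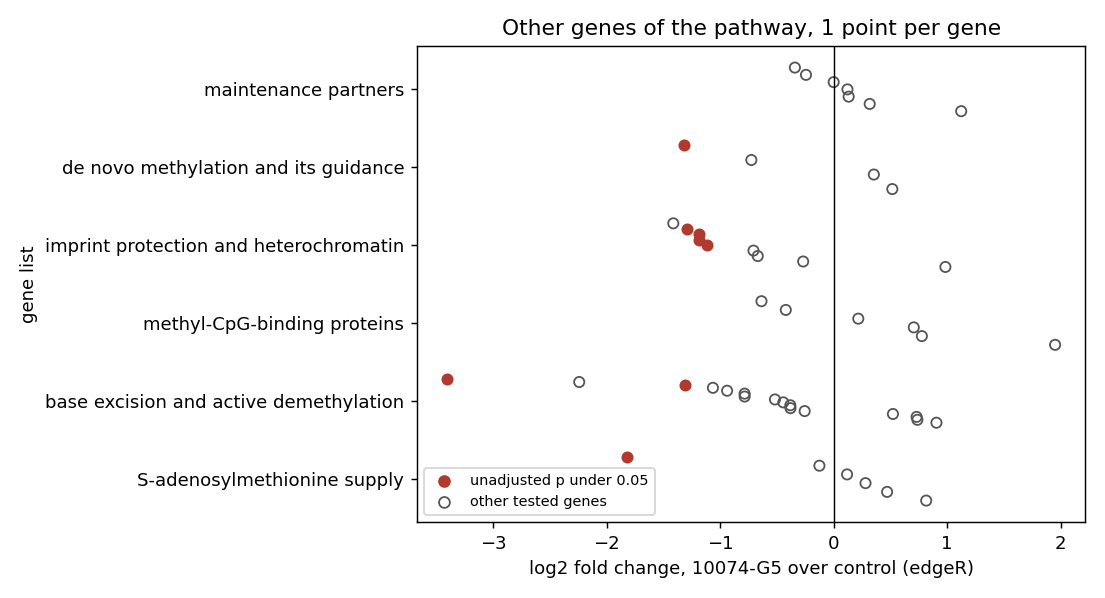
The log2FC, treated over control, of the 48 tested genes of the 6 pathway lists, 1 point per gene, with genes at an unadjusted p under 0.05 filled in red. All 8 filled points lie on the negative side, 4 of them in the list of imprint protection and heterochromatin, and none has an adjusted p under 0.333.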

How the data were processed

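Polyadenylated RNA of 4 libraries (SMART-Seq kit, which does not mark the strand) was sequenced as read pairs. The authors aligned them to mm10 with STAR 2.7.10 and quantified genes with RSEM 1.3.3 on RefSeq transcripts, keeping uniquely mapped reads. Expected counts, as deposited, are RSEM estimates without normalization. The FPKM and TPM deposited by the authors are scaled to effective length and to the library, and TPM served only as a check of the unit. The weighted transcript lengths were deposited beside them.

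Expected counts were rounded, filtered with filterByExpr (minimum count 10, minimum total 15), scaled with TMM factors (0.873, 1.04, 1.04 and 1.06) and tested with edgeR 4.0.16 (quasi-likelihood, robust, Benjamini-Hochberg over 13549 genes) in R 4.3.3, without a block. Standard errors are those implied by the quasi-likelihood F. SD values are over 2 libraries. The labels call the libraries replicates and the study calls them biological, so p-values measure the spread between 10-embryo pools. The fit was tested on simulated counts. Gene positions, transcripts and copies (blastn 2.17.0, 95% identity over 200 bases) are from GENCODE vM21, GRCm38.

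The members and lists were chosen with earlier results of these data known. All members were named, with the 2 genes of smallest unadjusted p per list and the gene of nearest pattern. Cbx3, Trim28, Zfp445, Tdg and Ahcy, and the ratios, were named after the values were seen.

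Alternatives were DESeq2 1.42.0, limma 3.58.1 on log2(FPKM + 1) or with a pseudocount of 0.1 (mean FPKM 1 or more), other scalings and filters, effective lengths as offsets, a replicate block and each library left out.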

Additional observations from a re-analysis of the deposited data

How the results depend on the processing

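Over 14 alternatives, 14 each for 9 members and 12 for Tet2, which the FPKM minimum removed from limma, the members kept their direction except Dnmt1 without treated replicate 2 (log2FC -0.017, from -0.017 to 0.74 over the fits that each drop a library) and Dnmt3l with library totals (0.0037). In 4 cases a member was called, each without DMSO replicate 2, with a log2FC of 1.68 for Uhrf1, -1.26 for Tet1, 1.05 for Zfp57 and -1.27 for Dppa3, where control replicate 1 alone stands for the controls and is assumed to vary like the treated libraries. The median log2FC of the members was 0.06. It was 0.34 with limma on log2(FPKM + 0.1), which tested 9 of them, against 0.16 for all genes in that fit. With effective lengths as offsets it turned to -0.09, against 0.04 for all tested genes. When single libraries were dropped, the median of the members ran from -0.12 to 0.13. The number of genes called higher and lower over the whole table, 0 and 0, was 97 and 479 with DESeq2 on the same genes, 87 and 437 when DESeq2 was given every gene with a count, 165 and 479 without a filter on low counts, and 0 and 0 in the other alternatives of tool, scaling, length and filter. Dropping single libraries gave from 1 to 2148 higher and from 1 to 2065 lower, the largest without DMSO replicate 2. The causes were not tested. With the replicate number as a block, 12 genes were called higher and 32 lower and none of them was a member; deviations of same-numbered libraries from their group means had a correlation of -0.034 over 13549 genes, so the numbers were not taken to pair the libraries. By library totals, a setting chosen for this count after the values were seen, 5 members were higher and 4 lower in both treated libraries, and with FPKM 5 and 5. Library totals moved the median log2FC of all tested genes from 0.04 to 0.17 and that of the members to 0.19. At 40 to 121 counts, Tet2 and Dnmt3b are limited by depth.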
